A study of Mus musculus with 8 samples.

Results

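Whole kidneys of Lim1 conditional mutant embryos were set against those of control littermates at E18.5, the later of the 2 ages in the series, over 4 of its 8 arrays. The mutant embryos were Lim1flox/lacZ; Rarb2-Cre tg/+ and carried a lacZ null allele, a floxed allele and the Cre transgene. The controls were Lim1flox/+; Rarb2-Cre tg/+, so both groups carried 1 floxed Lim1 allele and Rarb2-Cre, and the control kidneys were heterozygous for Lim1 wherever Cre had acted. Kidneys of 9 mutant and 14 control embryos of mixed sex, on a mixed 129, C57BL/6 and SJL/J background, were pooled by genotype. Rarb2-Cre is active in the metanephric mesenchyme, which forms the nephrons, and not in the ureteric bud, the source of the collecting ducts. The bud of the mutants therefore kept an intact floxed allele beside the lacZ null allele. Each pool gave 1 RNA preparation and 2 target preparations, and the 2 arrays of a pool are technical duplicates. With 1 pool per condition no p-value was computed, and all ranges given cover technical spread only.

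A kidney forms by exchange between both tissues. Tips of the branching ureteric bud induce the surrounding nephron progenitors, which turn into epithelial vesicles and then into glomeruli, proximal tubules, loops of Henle and distal tubules, while stromal cells fill the space between. Lim1, now named Lhx1, encodes a homeodomain transcription factor needed for a vesicle to elongate and pattern into a nephron. In the late fetal kidney the proximal tubule begins to reabsorb glucose, amino acids and phosphate, work that draws on many mitochondria.

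Genes were compared by the ratio of the arithmetic means of the duplicate signals, which are linear fluorescence intensities in arbitrary units. A gene met the criteria of size if any of its probe sets did. A ratio of 2 or more was asked for, larger than the fold between the duplicates of both conditions, a product of the higher mean and the ratio above 100, and signals on both arrays of the higher condition at or above the 40th percentile of their own signals, 177 to 194 units. Values in parentheses after a fold are the lowest and highest over the 4 pairings of single mutant and control arrays. Among 28285 genes and unnamed probe sets, 37 were higher in the mutant, which is 0.131%, and 456 were lower, which is 1.61%. Under a gene name stood 30 of the higher (0.165% of 18193 named genes) and 406 of the lower (2.23%). These are the members described here, with more room for the 30 and for the 364 named genes below the 50 largest control over mutant ratios. The higher set was shallow, with a median fold of 2.25 over 42 probe sets, 6 of them at least 4-fold and 0 at least 10-fold. The lower set had a median of 2.87 over 570 probe sets, 187 of them at least 4-fold and 74 at least 10-fold.

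**Figure D1:**
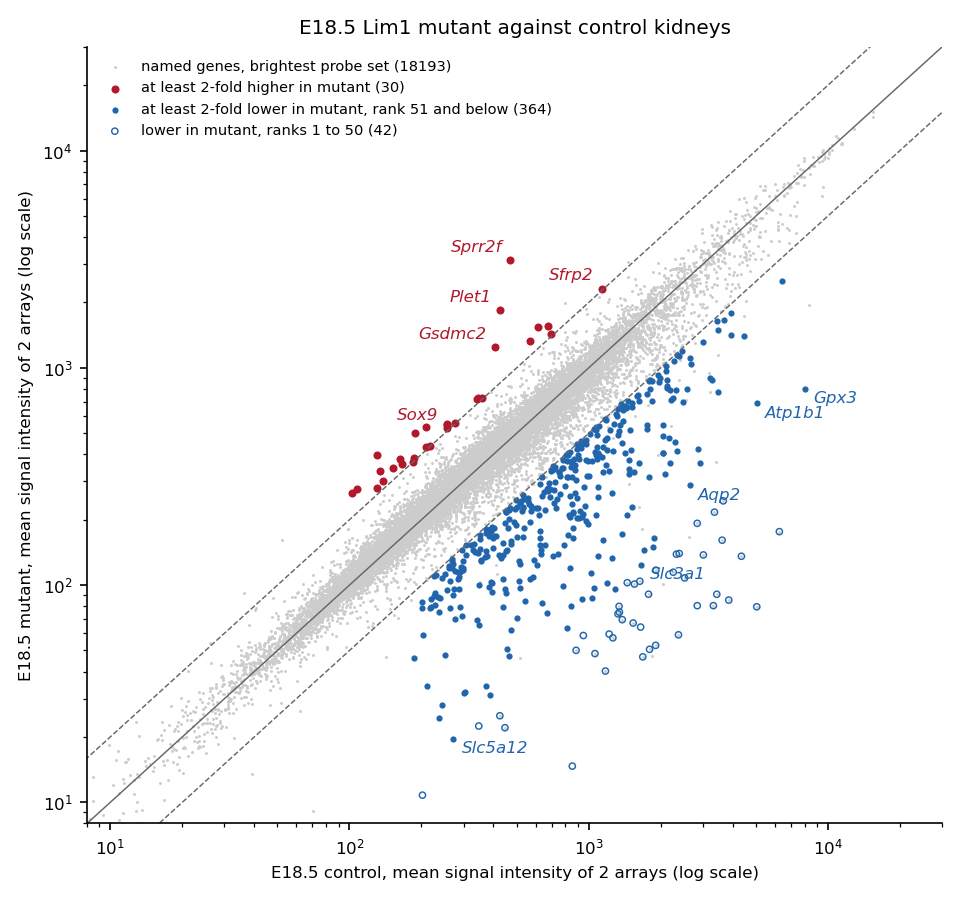
Mean signal intensity of the 2 E18.5 mutant arrays (vertical, log scale) against that of the 2 E18.5 control arrays (horizontal, log scale) for 18193 named genes. Grey points show every gene by its brightest probe set, and called genes are drawn again in red or blue by their passing one. The solid line marks equal signal and the dashed lines 2-fold; 30 red points lie above the upper dashed line and 406 blue points (filled, 364 of rank 51 and below) lie under the lower one, some far from it.

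The arrays were close in brightness. Median signals were 243 and 225 on the mutant arrays and 229 and 225 on the control arrays. The duplicates of the mutant pool were the least alike of the 4 pools, with a median fold between duplicates of 1.15 over probe sets above the 40th percentile on both, against 1.06 for the E18.5 control pool. Differences of 1.5-fold or more ran both ways between the mutant arrays (288 probe sets higher on the first, 194 on the second), while those of the control arrays ran mostly one way (14 and 378). Of the called genes, Zeb2 among the higher and Acsm2, Lrrc19, Acss1, Sostdc1, Plscr2, Slco1a6, Klf9, Cldn10 and Gpr137b-ps among the lower had a passing probe set that differed 1.5-fold between the mutant arrays. Klf9, for example, read 91.2 and 218 on the mutant arrays, against 480 and 468 on the control arrays. Zeb2, a zinc finger repressor of epithelial genes, read 555 and 322 in the mutant, against 198 and 236 in the control, 2.02-fold higher (1.36 to 2.80) by 1 of 5 probe sets, with the first mutant array well above the second. The other 4 probe sets of Zeb2 were between 0.980-fold and 1.23-fold. Of 20 ribosomal and housekeeping genes the median log2 ratio of mutant over control was 0.01, and over all named genes it was 0.03, with 56.0% above 0.

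Lhx1 itself gave no check of the genotypes. One of its probe sets read 459 and 379 in the mutant, against 342 and 382 in the control, and the other 296 and 333 in the mutant, against 370 and 352 in the control. These differ in direction and lie within 1.34-fold of each other in every pairing. Whether the probes lie inside the deleted part of the gene was not known here, and the ureteric bud keeps an intact copy.

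Of the 30 named genes higher in the mutant, 7 were in any of the gene lists, so the groups used to describe them were put together after their values had been seen. Several are known from barrier-forming and stratified epithelia. Sprr2f, which encodes a small proline-rich protein of the cornified envelope, read 3078 and 3189 on the mutant arrays, against 464 and 477 on the control arrays. It was 6.66-fold higher (6.45 to 6.87), the largest ratio of the direction, and the duplicates lay far closer together than the groups. Plet1, a surface protein gene of epithelial progenitors, read 1651 and 2034 in the mutant, against 409 and 439 in the control, 4.35-fold higher (3.76 to 4.98) and by 2 of 3 probe sets. Gsdmc2, a gasdermin family gene, read 1165 and 1331 in the mutant and 368 and 440 in the control, 3.09-fold higher (2.65 to 3.61). Sprr2f and Gsdmc2 have near-identical family members whose signal these probes may share.

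Lower in signal stood Tchh, which encodes the trichohyalin of hair follicle sheaths, with 331 and 460 in the mutant, against 125 and 134 in the control (3.04-fold, 2.46 to 3.67). Krtdap, a gene of differentiating keratinocytes, read 252 and 281 in the mutant, against 115 and 90.0 in the control (2.60-fold, 2.19 to 3.12). No array of the mutant overlapped the control for either gene, though the control signals lay below the 40th percentile. Cldn3, a tight junction claudin, was 2.16-fold higher by 1 of 4 probe sets, and its brightest probe set was 1.33-fold higher. Klf5, a transcription factor gene of many epithelia, read 460 and 650 in the mutant and 265 and 286 in the control (2.01-fold, 1.60 to 2.46), by 1 of 3 probe sets.

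Other epidermal genes differed less. Of 25 genes of epidermis and stratified epithelium, chosen after the values of the leading genes had been seen, 21 were measured, 17 lay above 0 and 0 met the criteria. Their summed signals were 6376 and 5974 in the mutant, against 5573 and 5249 in the control, and the median log2 ratio was 0.19. In 7 of them both mutant arrays lay under the 40th percentile. The highest was Dmkn, a secreted keratinocyte protein gene, at 169 and 192 in the mutant and 98.8 and 97.6 in the control (1.84-fold higher). Sprr3 was 1.76-fold higher (1.63 to 1.91), Sprr2h 1.57-fold, Krt13, a keratin gene of mucosal epithelia, 1.55-fold and Sprr1a, at 1132 and 1247 in the mutant and 889 and 879 in the control, 1.35-fold. Among the 4 genes below 0, the basal marker Trp63 read 336 and 317 in the mutant, against 361 and 346 in the control, and Krt14 read 606 and 470 in the mutant, against 645 and 569 in the control. Of 22 genes of the ureteric trunk and urothelium, 12 lay above 0 and 1 was at least 1.5-fold higher in every pairing. Their median log2 ratio was 0.03. The urothelial gene Upk1b read 474 and 419 in the mutant and 484 and 443 in the control.

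Other higher genes are known from the ureteric tip and its epithelium. Ret, which encodes the receptor through which tips respond to GDNF, read 343 and 398 in the mutant, against 191 and 177 in the control, and was 2.01-fold higher (1.79 to 2.25) by 1 of its 2 probe sets. The brighter one read 536 and 528 in the mutant and 393 and 347 in the control. Sox9, a transcription factor gene of the tip, read 481 and 577 in the mutant and 243 and 267 in the control (2.08-fold, 1.80 to 2.38), by 1 of 3 probe sets. Both genes were thus higher on each mutant array, by an amount that depended on the probe set.

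Aldh1a3, which encodes an enzyme that makes retinoic acid, was 2.50-fold higher (2.39 to 2.61) by its brightest probe set, which read 1946 and 2050 in the mutant and 813 and 785 in the control, and 2.57-fold higher by another. Slc12a2, the sodium-potassium-chloride cotransporter gene of basolateral membranes, read 321 and 348 in the mutant and 122 and 148 in the control (2.48-fold, 2.17 to 2.86), by 1 of 3 probe sets. Of the 15 measured genes in a list of ureteric tip genes, 13 lay above 0, with a median log2 ratio of 0.23 (0.13 to 0.25), and Ret and Sox9 alone met the criteria. The tip ligand gene Wnt11 read 862 and 885 in the mutant and 794 and 809 in the control, and Gfra1, the coreceptor of Ret, 1094 and 1144 in the mutant and 861 and 998 in the control. Emx2 went the other way at 488 and 548 in the mutant, against 762 and 755 in the control.

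Another group is known from stroma and mesenchyme. Pdgfra, a growth factor receptor gene of interstitial fibroblasts, read 459 and 539 in the mutant, against 187 and 188 in the control (2.66-fold, 2.45 to 2.88). Its brightest probe set, at 3005 and 3143 in the mutant and 1490 and 1424 in the control, passed as well, and the other did not. Id4, an inhibitor of basic helix-loop-helix factors, read 1545 and 1566 in the mutant and 681 and 675 in the control (2.29-fold, 2.27 to 2.32) by 1 of 3 probe sets, and its brightest was 1.78-fold higher (1.67 to 1.91). Sfrp2, a secreted modulator of Wnt signals made by early nephron structures and mesenchyme, read 2244 and 2394 in the mutant, against 1109 and 1154 in the control (2.05-fold, 1.94 to 2.16). Matn2, a filament-forming matrix protein gene, passed by both of its probe sets at 2.09-fold and 2.04-fold. Fgf13, an intracellular member of the fibroblast growth factor family, was 2.07-fold higher (1.92 to 2.22) by 1 of 2 probe sets, the other being dim and at 0.939-fold.

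A further group is known from embryonic and immature tissue. Hmga2, which encodes a chromatin protein of fetal tissue, read 372 and 399 in the mutant, against 187 and 184 in the control (2.08-fold, 1.99 to 2.17). Its other 3 probe sets were higher too, by up to 1.71-fold. Sox11, a Sox family gene of immature neural and mesenchymal cells, read 1688 and 1169 in the mutant, against 721 and 664 in the control (2.06-fold, 1.62 to 2.54), by 1 of 6 probe sets. Ncam1, an adhesion molecule gene of the induced mesenchyme, read 1590 and 1071 in the mutant and 616 and 523 in the control (2.34-fold, 1.74 to 3.04), by 1 of 7 probe sets. Sox11 and Ncam1 thus differed more between the mutant arrays than Id4 or Sprr2f did, while their lowest mutant array still exceeded the highest control array. Apela, which encodes a peptide ligand of the apelin receptor, read 657 and 790 in the mutant and 335 and 351 in the control (2.11-fold, 1.87 to 2.36), by 1 of 2 probe sets. The other was 1.06-fold (0.892 to 1.25).

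The remaining named genes of the direction fell in none of these groups. Ano4, a membrane protein gene of the anoctamin family, was 2.59-fold higher, D17H6S56E-5 2.51-fold, Gm3515 2.36-fold, Rrad 2.27-fold, Niban1 2.19-fold, Sbspon 2.17-fold and Minar2 2.13-fold. Tra2a, which encodes a splicing regulator, was 2.17-fold higher by 1 of 6 probe sets while its brightest probe set lay below 1. It was the one gene of the 30 whose brightest probe set pointed the other way, and 19 of the 30 also reached 2-fold by that probe set. Just inside the threshold stood Zeb2, Klf5 and Ret at 2.02-fold, 2.01-fold and 2.01-fold, and just outside it Sox4 at 1.995-fold, Cldn4 at 1.97-fold and Stra6 at 1.95-fold.

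**Figure D2:**
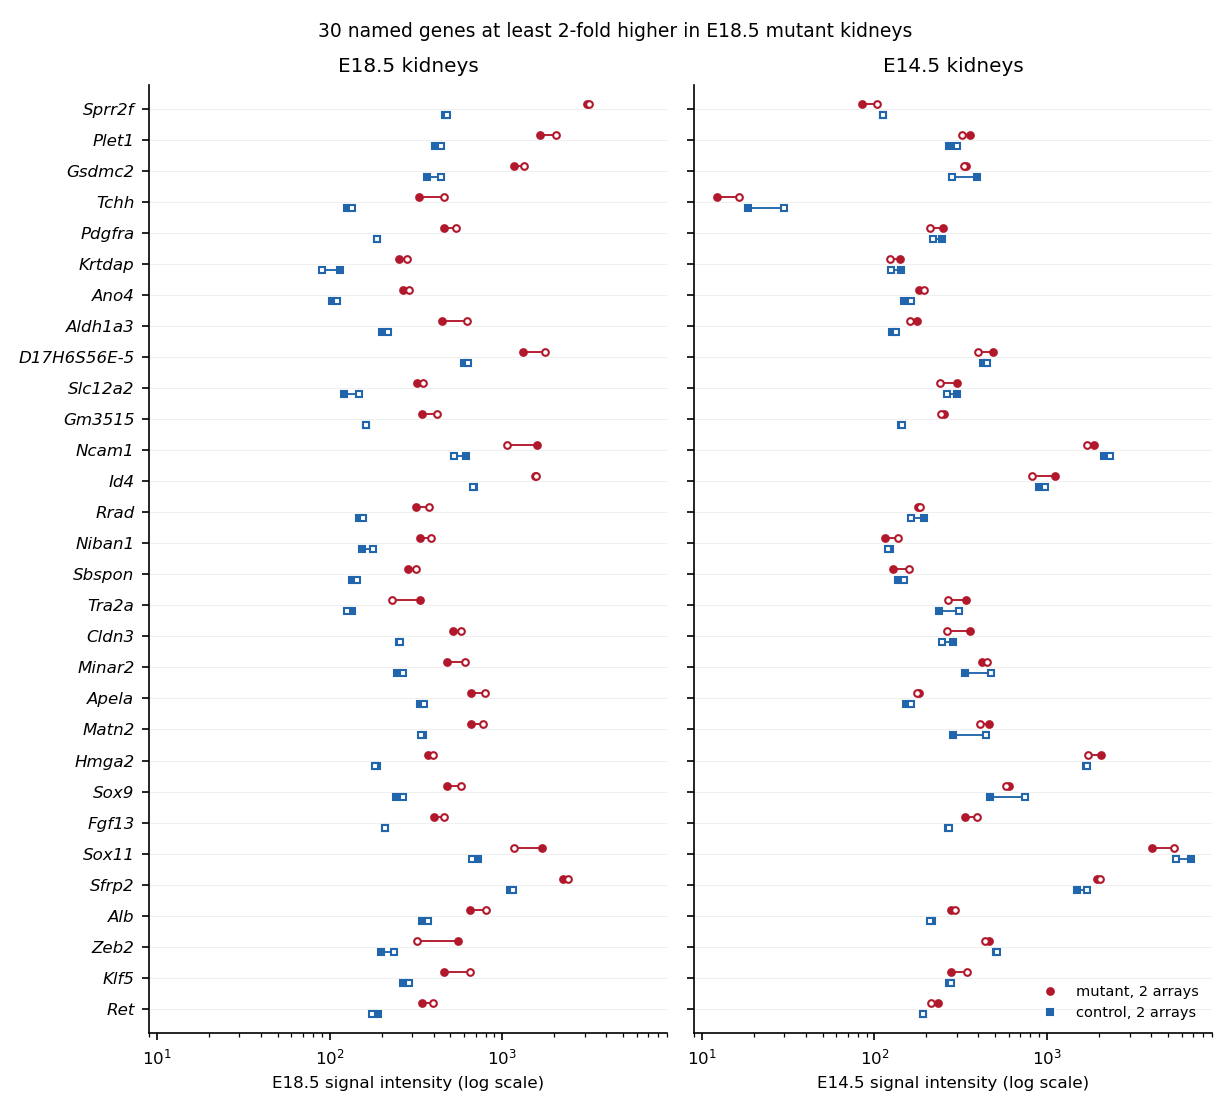
Signal intensity (log scale) on each array for the 30 named genes at least 2-fold higher in E18.5 mutant kidneys, with E18.5 on the left and E14.5 on the right; red circles are the 2 mutant arrays, blue squares the 2 control arrays (filled, array 1) and lines join duplicates. The red and blue pairs lie apart for all 30 genes at E18.5, and at E14.5 most pairs lie close together or overlap.

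Alb, the serum albumin gene made by hepatocytes, was 2.03-fold higher (1.75 to 2.34), with 648 and 803 in the mutant, against 344 and 370 in the control. In a list of 19 measured genes of hepatocytes and plasma proteins, 13 lay above 0, with a median log2 ratio of 0.05, and 3 met the criteria as lower. Of the 19, 7 were below the 40th percentile on all 4 arrays, and the summed signals were 5400 and 5310 in the mutant, against 9086 and 8861 in the control. Afp, the fetal albumin homologue, read 186 and 235 in the mutant, against 1014 and 1136 in the control, 5.11-fold lower (4.32 to 6.10) and by 4 of 5 probe sets. Ttr, which encodes a carrier of thyroid hormone, read 158 and 166 in the mutant and 1166 and 1139 in the control (7.13-fold lower, 6.87 to 7.40), by all 4 of its probe sets. The apolipoprotein gene Apoa1 had a log2 ratio of 0.05.

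Below the 2-fold threshold, nephron progenitor genes were higher together. All 20 measured genes of that list lay above 0, with a median log2 ratio of 0.64 (0.50 to 0.82), the highest of the 46 lists. None reached 2-fold. At a lower threshold of 1.5-fold in all 4 pairings, which 94 named genes (0.517%) passed as higher and 666 (3.66%) as lower, 6 of the 20 passed. Six2, which keeps the progenitors undifferentiated, read 1312 and 1451 in the mutant and 778 and 848 in the control (1.70-fold, 1.55 to 1.87). Cited1, which marks the uninduced cap mesenchyme, read 965 and 1076 in the mutant and 563 and 568 in the control (1.81-fold, 1.70 to 1.91). Eya1, a cofactor of Six2, read 773 and 878 in the mutant and 450 and 466 in the control (1.80-fold, 1.66 to 1.95). For these 3 genes the mutant and control arrays did not overlap, by a margin wider than that between duplicates.

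The other 3 past that threshold were Crym, a thyroid hormone binding protein gene, at 1.93-fold, Kif26b, a kinesin family gene of the mesenchyme, at 1.91-fold, and Spock2, a proteoglycan gene, at 1.79-fold. Gdnf, the ligand of Ret, read 666 and 817 in the mutant and 407 and 457 in the control (1.72-fold, 1.46 to 2.01). At the other end were Wt1, at 1211 and 1454 in the mutant and 1208 and 1197 in the control, and Itga8, at 1150 and 1471 in the mutant, against 1223 and 1314 in the control. Wt1 is also a podocyte gene. For both genes the lower mutant array was close to or below a control array.

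Genes of the first nephron stages were split. The list of 26 had a median of -0.01, with 13 genes on each side of 0. In it, 3 genes met the criteria as lower (Papss2, Sim2 and Irx2) and 1 as higher (Sfrp2). At 1.5-fold in every pairing, 5 were lower and 3 higher. Wnt4, a signal that drives the progenitors into epithelium, read 1082 and 1500 in the mutant and 779 and 756 in the control (1.68-fold, 1.39 to 1.99), and Bmp2 was 1.69-fold higher (1.60 to 1.78). Jag1, a Notch ligand gene of the vesicle, read 841 and 1054 in the mutant, against 1329 and 1227 in the control. Hes5, a Notch target gene, read 179 and 175 in the mutant and 237 and 223 in the control. Both Notch genes were lower on each mutant array without reaching 1.5-fold in every pairing.

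Of 29 measured transcription factor genes of the nephron 7 met the criteria as lower and 0 as higher, with 10 above 0 and a median log2 ratio of -0.12. Irx2 read 148 and 128 in the mutant, against 406 and 442 in the control (3.07-fold lower, 2.74 to 3.45). Sim1 was 2.49-fold lower, with its brightest probe set at a log2 ratio of -0.01. Sim2, named from the list of the first nephron stages, was 3.44-fold lower. Irx3 and Pou3f3, also called Brn1 and needed for the loop of Henle, did not reach 2-fold. Irx3 read 373 and 455 in the mutant and 689 and 750 in the control, and Pou3f3 612 and 638 in the mutant and 1023 and 1090 in the control, without overlap. Epha4 was 1.34-fold higher, Fzd4 read 857 and 754 in the mutant and 1027 and 1032 in the control, and Msi2 had a log2 ratio of -0.09. Crb3, a polarity gene of epithelia, had -0.00 by its brightest probe set and was 1.80-fold lower (1.66 to 1.96) by 1 of the other 2.

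Stromal genes stood mostly above 0. Of 27 genes of cortical and medullary stroma 23 lay above 0, with a median log2 ratio of 0.34 (0.31 to 0.41), and Pdgfra alone met the criteria. Fat4, a giant cadherin gene through which stroma acts on progenitors, read 1927 and 1823 in the mutant and 999 and 945 in the control (1.93-fold, 1.82 to 2.04). Smoc2 and Meis2 were 1.82-fold and 1.65-fold higher. Foxd1, which marks stromal progenitors, read 481 and 528 in the mutant and 362 and 428 in the control, a difference near that between the control arrays.

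Of 33 genes of the interstitial matrix 26 lay above 0, with a median of 0.27 (0.16 to 0.38) and summed signals of 63838 and 72440 in the mutant and 56338 and 57420 in the control. Vcan, a large proteoglycan gene, read 1948 and 2281 in the mutant and 1069 and 1133 in the control by its brightest probe set. The abundant collagen genes differed less, with Col3a1 at 8371 and 8722 in the mutant and 7600 and 7465 in the control. Smooth muscle and pericyte genes had a median of 0.06 over 23 genes.

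Of 30 measured macrophage and leukocyte genes, 28 lay above 0, with a median log2 ratio of 0.20 (0.15 to 0.29), and 0 passed either threshold. The complement genes C1qa, C1qb and C1qc, made by tissue macrophages, led the list at 1.74-fold, 1.78-fold and 1.72-fold higher. C1qa read 469 and 602 in the mutant and 299 and 316 in the control. The receptor gene Csf1r read 1490 and 1684 in the mutant, against 1241 and 1660 in the control, where the second control array came within the mutant range. Proliferation genes had a median of 0.13 (-0.01 to 0.25), with 26 of 29 above 0. That range reaches 0, and the summed signals of 29133 and 35273 in the mutant, against 29088 and 30153 in the control, overlap.

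Endothelial genes stood mostly below 0, in 18 of 24, with a median log2 ratio of -0.15 (-0.29 to -0.03). Ehd3, an endocytic gene of glomerular capillaries, read 356 and 395 in the mutant and 722 and 691 in the control. Ednrb, an endothelin receptor gene, read 591 and 728 in the mutant and 1155 and 1096 in the control, and Plvap 751 and 878 in the mutant and 1115 and 1205 in the control. General endothelial genes differed less, with Kdr at 973 and 1165 in the mutant and 1265 and 1110 in the control.

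Lists of neighbouring organs gave no large difference. The medians were 0.03 for 12 genes of the adrenal cortex, 0.12 for 19 of skeletal and cardiac muscle, 0.08 for 15 of gonads and genital ducts and 0.04 for 14 of red cells. Summed adrenal signals were 2940 and 2808 in the mutant, against 3586 and 3452 in the control. Fdx1, a ferredoxin gene of mitochondrial steroid and vitamin D enzymes, was 2.67-fold lower. Cyp11a1, the defining enzyme of steroid synthesis, had a log2 ratio of 0.01.

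**Figure D3:**
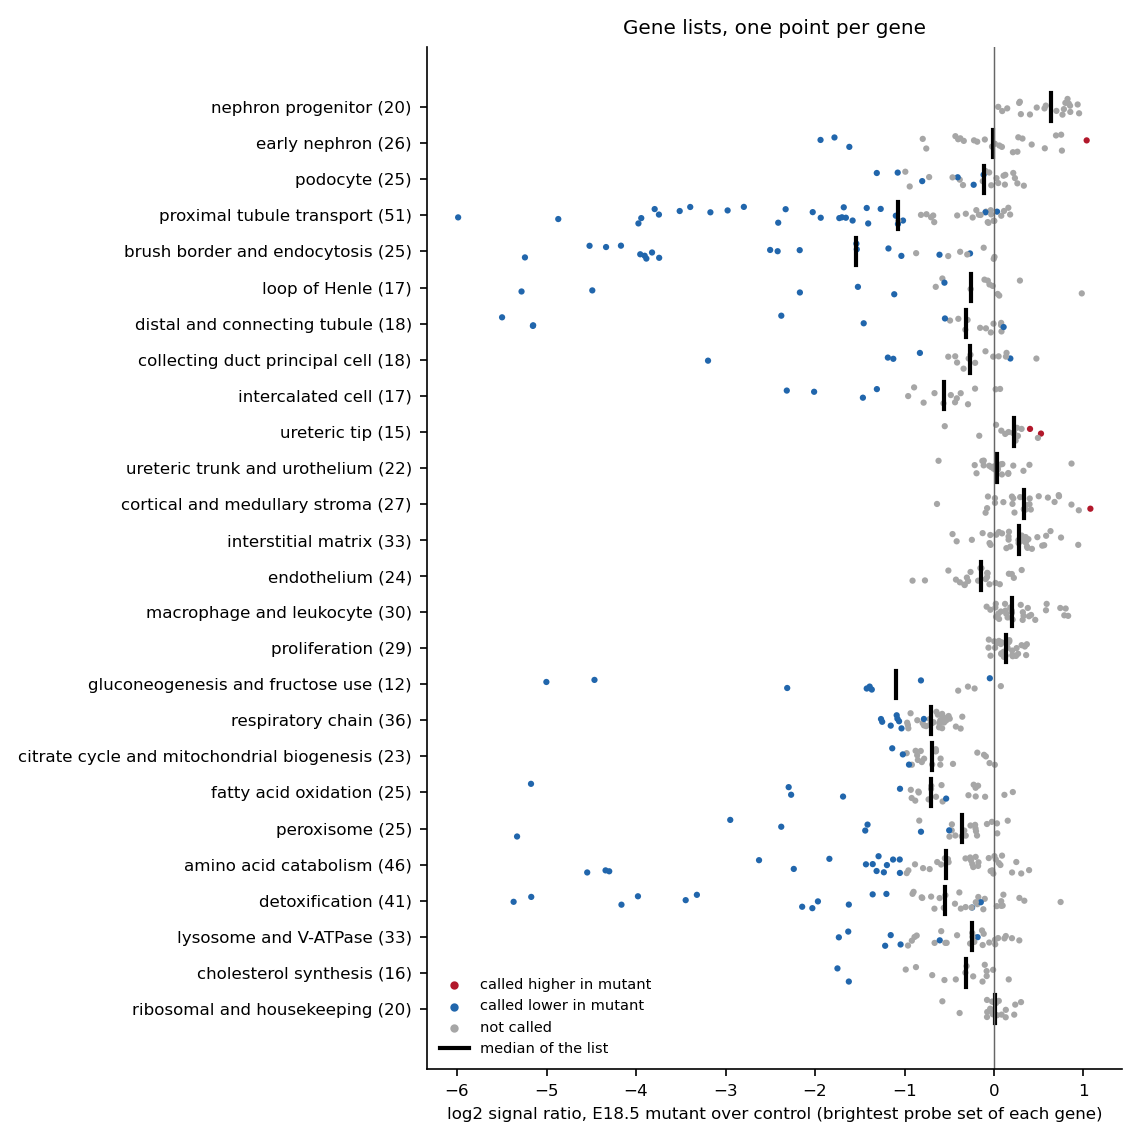
Log2 ratio of E18.5 mutant over control signal for each gene of 26 of the lists, by its brightest probe set, with the number of genes measured in parentheses. Red and blue points met the criteria as higher or lower by any probe set, grey points did not, and black bars are list medians, which run from 0.64 for the nephron progenitor to -1.54 for the brush border.

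The 364 named genes of rank 51 and below among those lower in the mutant ran from 13.8-fold to 2.00-fold lower, with a median of 2.68. In 59 the fold was 5 or more, in 84 between 3 and 5 and in 221 below 3, and 275 were at least 2-fold lower in all 4 pairings. By their brightest probe set, 337 of all 406 lower genes were 2-fold lower too, 26 were under 1.2-fold lower or higher in the mutant, and 10 of these were higher. For 129 of the 364 both mutant arrays lay under the 40th percentile, where the size of a ratio depends on the background. In pooled whole kidneys, fewer cells of a type and less RNA per cell cannot be told apart. The gene lists held 131 of the 364, among them 56 in lists of nephron stages and segments, 58 in lists of metabolism and 9 in lists of the ureteric lineage, and 0 were in the stromal or nephron progenitor lists.

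Solute carriers of all segments and membranes gave 37 of the 364, of 313 measured, beside 6 at ranks 1 to 50 and 1 gene, Slc12a2, in the opposite direction. Slc5a12, a lactate carrier gene, read 21.4 and 17.8 in the mutant, against 285 and 258 in the control (13.8-fold lower, 12.1 to 16.0). Slc3a1, the heavy subunit of the cystine carrier, read 123 and 125 in the mutant, against 1604 and 1719 in the control (13.4-fold lower, 12.8 to 14.0). Slc7a9, the light subunit that pairs with it, read 160 and 146 in the mutant, against 654 and 595 in the control (4.07-fold lower, 3.71 to 4.47). The groups stood far apart for both, and the mutant signals of both lay under the 40th percentile.

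Glucose carriers of both membranes were among them. Slc5a1, a sodium-glucose cotransporter gene, read 26.2 and 22.6 in the mutant and 231 and 243 in the control (9.72-fold lower, 8.82 to 10.8). Slc2a2, the basolateral glucose carrier gene, read 77.2 and 72.1 in the mutant and 655 and 688 in the control (8.99-fold lower, 8.48 to 9.54). The brighter probe set of Slc5a1 was 2.41-fold lower (2.18 to 2.66), so the depth depended on the probe set. Slc5a2, the main glucose cotransporter gene of the adult tubule, had a log2 ratio of -0.07 by its brighter probe set and was 1.93-fold lower (1.71 to 2.21) by the other. Slc6a18, a neutral amino acid carrier gene, was 10.5-fold lower, Slc27a2, a fatty acid carrier gene, 11.4-fold, and Slc4a4, the bicarbonate exit route of the cell, 4.49-fold by 1 of 5 probe sets, with the brightest at 1.07-fold lower.

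Of 21 measured Slc22 genes, the family of organic ion carriers, 6 were at rank 51 and below and 2 higher in rank. Slc22a2, an organic cation carrier gene, was 6.94-fold lower (6.08 to 8.05). Slc22a8, an organic anion carrier gene, read 153 and 134 in the mutant and 441 and 461 in the control (3.15-fold lower, 2.89 to 3.45). The water channel gene Aqp1 read 375 and 440 in the mutant and 2001 and 2091 in the control (5.02-fold lower, 4.55 to 5.58). In all, 28 of 51 measured genes in the list of proximal tubule transport met the criteria as lower and 0 as higher, with a median log2 ratio of -1.07 (-1.12 to -0.97).

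Promoters of these genes were searched for letters bound by factors of the proximal tubule, namely GTTAAT, one arm of the HNF1 site, and the site CAAAGTCCA of HNF4, on both strands. The stretches were 250 bases before to 50 after each RefSeq start (GRCm38.p6). The HNF1 arm stood in 34 of 390 promoters of the genes of rank 51 and below (8.72%), in 10 of 40 at ranks 1 to 50, and in 959 of 18109 of all named genes on the array (5.30%). The HNF4 site stood in 1.28% of promoters of the genes of rank 51 and below and in 0.491% of all. Among the genes higher in the mutant, 2 of 24 promoters held the HNF1 arm (8.33%), a share near that of the lower genes of rank 51 and below. The full HNF1 palindrome, an arm, any base and the arm in reverse, stood in 0 of the 18109 promoters. A match is a description of letters and not of binding, and the shares were not tested. The 7 stretches printed here show how such matches sit in genes that were lower (first 6) and in 1 that was higher (Alb), with the matched letters in capitals, 5′ to 3′ along the gene's strand. Slc3a1 holds an HNF4 site and an HNF1 arm in reverse (ATTAAC), Agxt2 an HNF4 site, Prodh2 an HNF1 arm in each orientation, and Slc22a8, Pkhd1, Afp and Alb 1 HNF1 arm each.
Slc3a1: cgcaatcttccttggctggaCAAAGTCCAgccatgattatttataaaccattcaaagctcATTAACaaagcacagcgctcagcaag
Agxt2: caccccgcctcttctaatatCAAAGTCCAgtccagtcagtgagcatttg
Slc22a8: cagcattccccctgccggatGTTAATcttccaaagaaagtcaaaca
Prodh2: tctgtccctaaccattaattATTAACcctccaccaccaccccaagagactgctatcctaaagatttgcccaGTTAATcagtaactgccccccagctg
Pkhd1: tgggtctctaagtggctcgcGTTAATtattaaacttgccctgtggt
Afp: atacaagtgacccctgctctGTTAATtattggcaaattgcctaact
Alb: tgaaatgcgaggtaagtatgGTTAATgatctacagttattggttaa
The stretches lie at chr17:85028288-85028373 (Slc3a1), chr15:10358492-10358540 (Agxt2), chr19:8593081-8593126 (Slc22a8), chr7:30493514-30493610 (Prodh2), chr5:90490589-90490634 (Afp) and chr5:90460818-90460863 (Alb) on the plus strand and at chr1:20618111-20618156 (Pkhd1) on the minus strand. Afp and Alb, neighbours on chromosome 5, both hold the HNF1 arm and differed in opposite directions between the genotypes.

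Of 25 measured genes of the brush border and the endocytic machinery under it, 18 met the criteria as lower and 24 lay below 0, with the lowest median of all lists at -1.54 (-1.85 to -1.50). Outside the 50 largest ratios, Fut9, a fucosyltransferase gene, read 92.5 and 99.5 in the mutant, against 1305 and 1264 in the control (13.4-fold lower, 12.7 to 14.1). Vil1, which bundles the actin of microvilli, read 109 and 109 in the mutant, against 544 and 624 in the control (5.34-fold lower, 4.97 to 5.71). The peptidase genes Mme and Enpep, which cleave filtered peptides, were 5.66-fold and 4.50-fold lower, and Enpep still read 750 and 797 in the mutant. Dpp4, Folr1 and Cdhr5 were 2.89-fold, 2.90-fold and 2.26-fold lower, and Dab2, an adaptor of the endocytic receptors, 2.05-fold (1.74 to 2.45). Members thus kept signal in the mutant to unequal degrees.

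Receptors through which hormones act on this segment were among the lower genes too. Pth1r, the receptor of parathyroid hormone, read 312 and 415 in the mutant, against 1574 and 1664 in the control (4.45-fold lower, 3.79 to 5.33). Cckar, a cholecystokinin receptor gene, was 10.9-fold lower (9.69 to 12.4), with mutant signals of 37.7 and 30.8. Sucnr1, the succinate receptor gene, read 31.9 and 32.2 in the mutant and 304 and 301 in the control (9.45-fold lower). In a list of 23 renal hormone and receptor genes 3 met the criteria, and the insulin receptor gene Insr and the receptor gene Agtr1a had log2 ratios of -0.30 and -0.51.

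**Figure D4:**
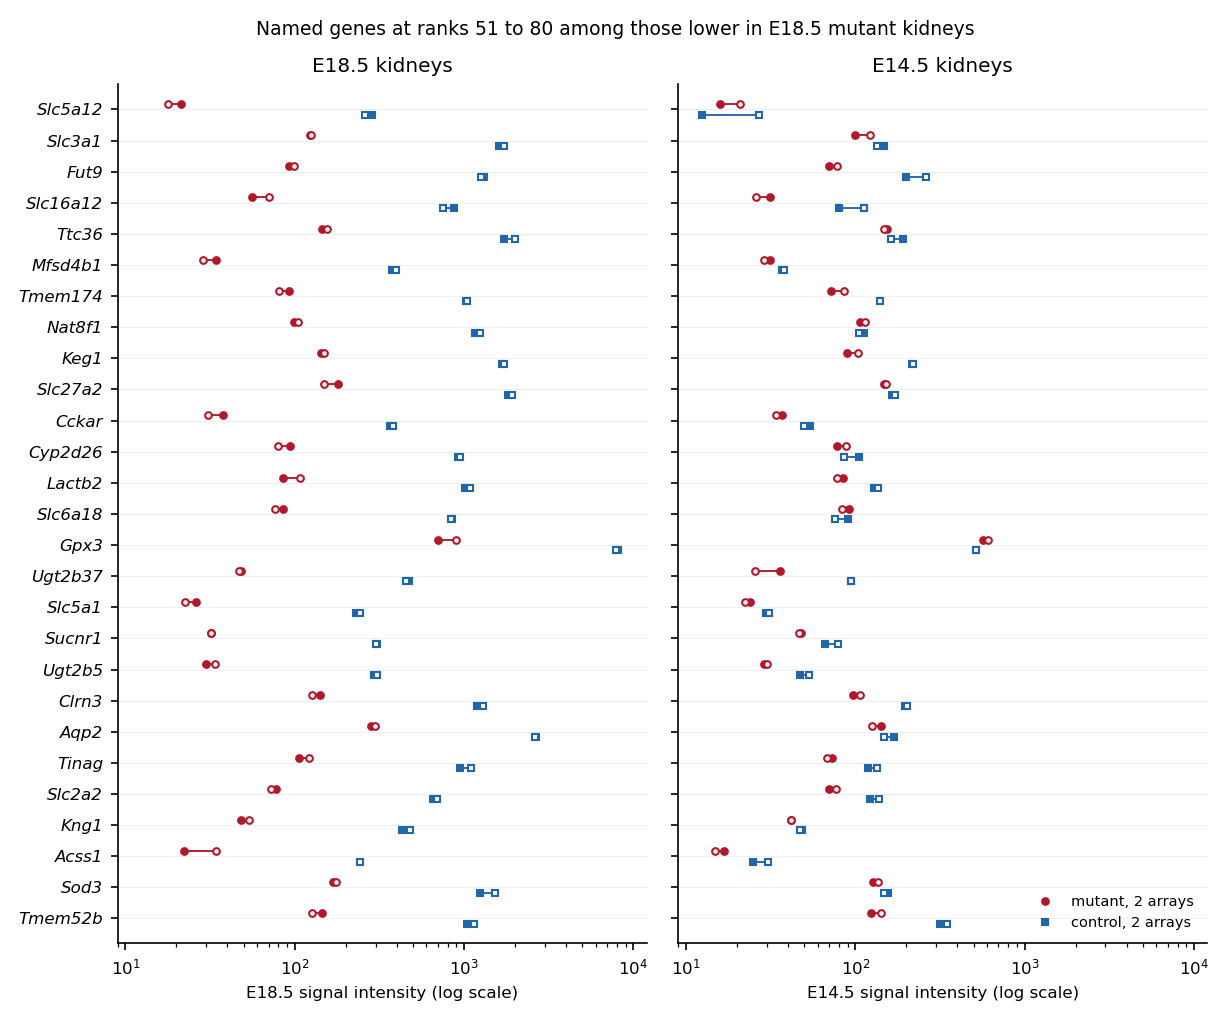
Signal intensity (log scale) on each array for the named genes at ranks 51 to 80 among those lower in E18.5 mutant kidneys, with E18.5 on the left and E14.5 on the right; red circles are the 2 mutant arrays and blue squares the 2 control arrays (filled, array 1). From Slc5a12, 13.8-fold lower, to Tmem52b, 8.06-fold lower, red and blue pairs stand far apart at E18.5, and at E14.5 they lie closer or overlap.

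The highest control signal of ranks 51 to 80 was that of Gpx3, which encodes the glutathione peroxidase that the tubule secretes into plasma. It read 704 and 900 in the mutant, against 8124 and 7898 in the control (9.99-fold lower, 8.77 to 11.5). Other genes of antioxidant defence and conjugation stood beside it. Sod3, an extracellular superoxide dismutase gene, was 8.09-fold lower (7.10 to 9.11), the glucuronyltransferase genes Ugt2b37 and Ugt2b5 9.76-fold and 9.43-fold, and the cytochrome gene Cyp2d26 10.9-fold. Fmo1, a flavin monooxygenase gene, was 4.42-fold and Cyp24a1, which degrades active vitamin D, 4.08-fold lower. The metallothionein gene Mt1 read 351 and 401 in the mutant and 1410 and 1531 in the control, and Mt2 was 2.56-fold lower. Of 41 genes of detoxification 14 met the criteria as lower and 0 as higher, with a median log2 ratio of -0.54. Aldh1a1 lay on the other side, at 482 and 478 in the mutant and 296 and 277 in the control (1.68-fold higher).

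Genes of energy metabolism stood mostly below 0. All 36 measured genes of the respiratory chain lay below 0, with a median log2 ratio of -0.70 (-0.83 to -0.64), 8 met the criteria and 22 were at least 1.5-fold lower in every pairing. Their summed signals were 88106 and 95006 in the mutant, against 146443 and 146282 in the control. Atp5g1, a subunit of the ATP synthase ring, read 963 and 1255 in the mutant, against 2574 and 2748 in the control (2.40-fold lower, 2.05 to 2.85). Cycs, which encodes cytochrome c, read 1282 and 1719 in the mutant, against 3341 and 3588 in the control (2.31-fold lower, 1.94 to 2.80). The narrow spread of the list, from -1.26 for Atp5g1 to -0.35 for Atp5a1, covered subunits of every complex of the chain.

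Of 23 genes of the citrate cycle and mitochondrial biogenesis 22 lay below 0, with a median of -0.69. Idh3a was 2.20-fold lower and Fh1, the fumarase gene, 2.03-fold lower. Ppargc1a, the coactivator that raises mitochondrial gene expression, read 88.4 and 118 in the mutant, against 394 and 390 in the control, 3.80-fold lower by the lead of 4 passing probe sets and 1.93-fold lower by its brightest. Esrrg, a nuclear receptor gene of the same programme, was 2.28-fold lower (2.22 to 2.35). Tfam and Nrf1, general factors of mitochondrial DNA and its genes, had log2 ratios of -0.19 and -0.11.

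Fatty acid oxidation had a median of -0.70 over 25 genes and peroxisomes -0.36 over 25. Acadm, which starts the oxidation of medium-chain fatty acids, read 736 and 864 in the mutant and 2571 and 2577 in the control (3.22-fold lower, 2.98 to 3.50). Bdh1 and Oxct1, which handle ketone bodies, were 4.81-fold and 2.60-fold lower. The peroxisomal genes Acaa1b and Dao were 7.71-fold and 5.20-fold lower, while Cat, the catalase gene, had a log2 ratio of -0.32. The depths of the transporters were not matched in the chain and the citrate cycle, where the highest fold was that of Ppargc1a.

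Of 12 genes of gluconeogenesis and fructose use 8 met the criteria, with a median of -1.09 (-1.13 to -1.01). Pcx, which carboxylates pyruvate in the first step, read 181 and 214 in the mutant, against 963 and 995 in the control (4.96-fold lower, 4.51 to 5.50). Slc37a4, which carries glucose 6-phosphate to its phosphatase, was 2.68-fold lower, and Ldhb, at 1331 and 1500 in the mutant and 4104 and 3757 in the control, 2.78-fold. Glycolytic and hypoxia-responsive genes had a smaller median of -0.43 over 24 genes. Ndrg1 read 313 and 417 in the mutant and 2069 and 2295 in the control (5.98-fold lower), and Car12 and Pfkp were 4.32-fold and 2.95-fold lower.

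Amino acid catabolism gave 15 of 46 genes as lower, with a median of -0.53. Cth, which makes cysteine, read 232 and 299 in the mutant and 1259 and 1241 in the control (4.71-fold lower, 4.16 to 5.44). The tyrosine pathway genes Hgd and Fah were 2.70-fold and 2.48-fold lower, and Glud1, which releases ammonia from glutamate, 2.56-fold. Lysosomal and proton pump genes had a median of -0.24 (-0.53 to -0.13) over 33 genes, 7 of them called. Lgmn, a lysosomal protease gene, read 472 and 578 in the mutant and 1731 and 1760 in the control (3.33-fold lower). Cholesterol synthesis had a median of -0.31 over 16 genes, with Hmgcs1 at 751 and 1036 in the mutant, against 3007 and 3427 in the control (3.60-fold lower, 2.90 to 4.56), and Cyp51 at 3.08-fold lower.

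In the loop of Henle and the distal tubule, 6 of 17 and 7 of 18 genes met the criteria as lower, with medians of -0.26 and -0.31. Slc12a3, the thiazide-sensitive cotransporter gene, read 144 and 128 in the mutant, against 705 and 710 in the control (5.19-fold lower, 4.89 to 5.53). Kcnj1, a potassium channel gene of the thick ascending limb, was 4.50-fold lower (3.87 to 5.35), and Kcnj10 and Kcnj16, which form a basolateral channel, 2.74-fold and 2.41-fold, with the brighter probe set of Kcnj16 at 1.47-fold. Cldn16, a paracellular magnesium pore gene, was 2.17-fold lower. Cldn10 was 2.87-fold lower, but with 590 and 244 on the mutant arrays, against 1160 and 1232 on the control arrays, the fold ran from 1.97 to 5.05. Atp1b1, the beta subunit of the sodium pump that all these segments use, read 605 and 766 in the mutant, against 5290 and 4812 in the control (7.37-fold lower, 6.28 to 8.74). Its brightest probe set was 4.26-fold lower (4.01 to 4.53).

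Podocyte genes were divided. Of 25 measured, 6 met the criteria as lower and 16 lay below 0, with a median of -0.12 (-0.14 to -0.08). Synpo, an actin-binding gene of foot processes, read 208 and 254 in the mutant and 590 and 556 in the control (2.48-fold lower, 2.19 to 2.83), and Ptpro 77.7 and 79.9 in the mutant and 196 and 206 in the control (2.55-fold). Col4a3 and Col4a4, collagen chains laid down in the glomerular basement membrane as it matures, were 2.98-fold and 2.40-fold lower, each by 1 probe set that was not the brightest. Nphs1, which encodes the nephrin of the slit diaphragm, read 549 and 545 in the mutant and 534 and 602 in the control, and did not differ beyond the arrays' spread. The early podocyte gene Tcf21, also a stromal gene, read 4121 and 4490 in the mutant and 3452 and 3382 in the control.

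Collecting duct cells descend from the ureteric bud. Of 18 measured genes of principal cells 5 met the criteria as lower and 5 lay above 0, with a median of -0.27. Aqp2, the vasopressin-regulated water channel gene of principal cells, read 281 and 296 in the mutant, against 2659 and 2632 in the control (9.16-fold lower, 8.88 to 9.46). Aqp3, the water exit channel of the same cells, was 3.55-fold lower by 2 of 4 probe sets, and Sgk1, an aldosterone-induced kinase gene, 2.28-fold. Aqp4 was 2.40-fold lower by 1 of 3 probe sets, with its brightest probe set at a log2 ratio of 0.18. Tfcp2l1, a transcription factor gene of collecting duct cells, read 877 and 1052 in the mutant and 2139 and 2069 in the control (2.18-fold lower, 1.97 to 2.44). The sodium channel genes Scnn1a, Scnn1b and Scnn1g had log2 ratios of -0.34, -0.41 and -0.26 and did not meet the criteria. Fxyd4, a regulator of the sodium pump, was the highest of the list at 0.47.

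Intercalated cells, which secrete acid or base, had a median of -0.56 (-0.73 to -0.51) over 17 genes, with 15 below 0. Foxi1, their defining transcription factor gene, read 132 and 126 in the mutant, against 343 and 367 in the control (2.76-fold lower, 2.60 to 2.92). Atp6v1b1, a proton pump subunit gene known from these cells, was 4.98-fold lower (4.49 to 5.54), and Rhbg, an ammonia channel gene, 2.48-fold. Of 22 genes of the ureteric trunk and urothelium 0 met the criteria, with a median of 0.03 (-0.02 to 0.06), and the trunk gene Wnt7b had a log2 ratio of 0.16. General adhesion genes of epithelia, such as Cdh1 and Epcam, stood at -0.23 and -0.12.

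Further lower genes of rank 51 and below were picked out after their values had been seen. Sostdc1, an antagonist of BMP and Wnt signals, was 7.97-fold lower (7.21 to 8.85). Tinag, a basement membrane gene of tubules, was 9.02-fold lower. Pkhd1, the gene of recessive polycystic kidney disease, read 122 and 145 in the mutant, against 412 and 450 in the control (3.23-fold lower, 2.85 to 3.69), while Pkd1 had a log2 ratio of 0.33. Mitf and Tfec, related transcription factor genes that act on lysosomes, were 2.05-fold and 2.24-fold lower. Neat1, a nuclear noncoding RNA, read 360 and 455 in the mutant and 1437 and 1396 in the control (3.47-fold lower). Sycp3, best known from meiosis, was 5.26-fold lower with mutant signals of 47.2 and 47.8. Just inside the 2-fold threshold stood Igfbp3, Mien1 and Hebp1, and just outside it Crabp1, Acsl4 and Sgms2 at 1.9997-fold, 1.998-fold and 1.998-fold lower.

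The E14.5 pools, 17 mutant and 23 control embryos on 4 separate arrays, showed much less of either difference. Of the 30 genes higher in the E18.5 mutant, 20 were above 1 at E14.5, 10 of them in all 4 pairings, and 5 were below 1 in all 4, with a median of 1.06-fold higher. Of the 364 lower genes of rank 51 and below, 259 were below 1 at E14.5, 38 of them 1.5-fold lower or more, and the median was 1.08-fold lower. Among all probe sets above the 40th percentile on any array, 50.7% were above 1 at E14.5. Of these 30824, 6534 were above 1 in all 4 E14.5 pairings, 5500 were below 1 in all 4, and 196 were 1.5-fold lower or more. Sprr2f, the leading gene at E18.5, read 84.5 and 103 in the E14.5 mutant, against 113 and 113 in the E14.5 control. All of these signals lay under the 40th percentile of their arrays. Hmga2 read 2052 and 1716 in the E14.5 mutant and 1685 and 1700 in the E14.5 control, several times its E18.5 signals in either genotype. Gm3515 was the most alike at the 2 ages, at 2.36-fold higher at E18.5 and 1.72-fold at E14.5.

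Some of the lower genes already differed at E14.5. Sostdc1 was 7.97-fold lower at E18.5 and 4.16-fold lower at E14.5, Slc16a12 12.8-fold and 3.38-fold, Fut9 13.4-fold and 3.13-fold, and Ugt2b37 9.76-fold and 3.07-fold. Gpx3 showed no such deficit at E14.5, where it was 0.880-fold. The list medians were as uneven between the ages. Proximal tubule transport had -1.07 at E18.5 and -0.11 at E14.5, the respiratory chain -0.70 and 0.10, and intercalated cells -0.56 and -0.10. Genes of the first nephron stages went the other way, with -0.01 at E18.5 and -0.21 at E14.5, where 9 of 26 lay above 0. The lists leaned different ways at E14.5. Above 0 were 12 of 51 genes of proximal tubule transport and 4 of 25 of the brush border, against 29 of 36 of the respiratory chain. Nephron progenitor genes were above 0 at both ages, at 0.64 and 0.34, and interstitial matrix genes at 0.27 and 0.28. The difference between the ages was not tested, since each rests on 1 pool per condition.

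**Figure D5:**
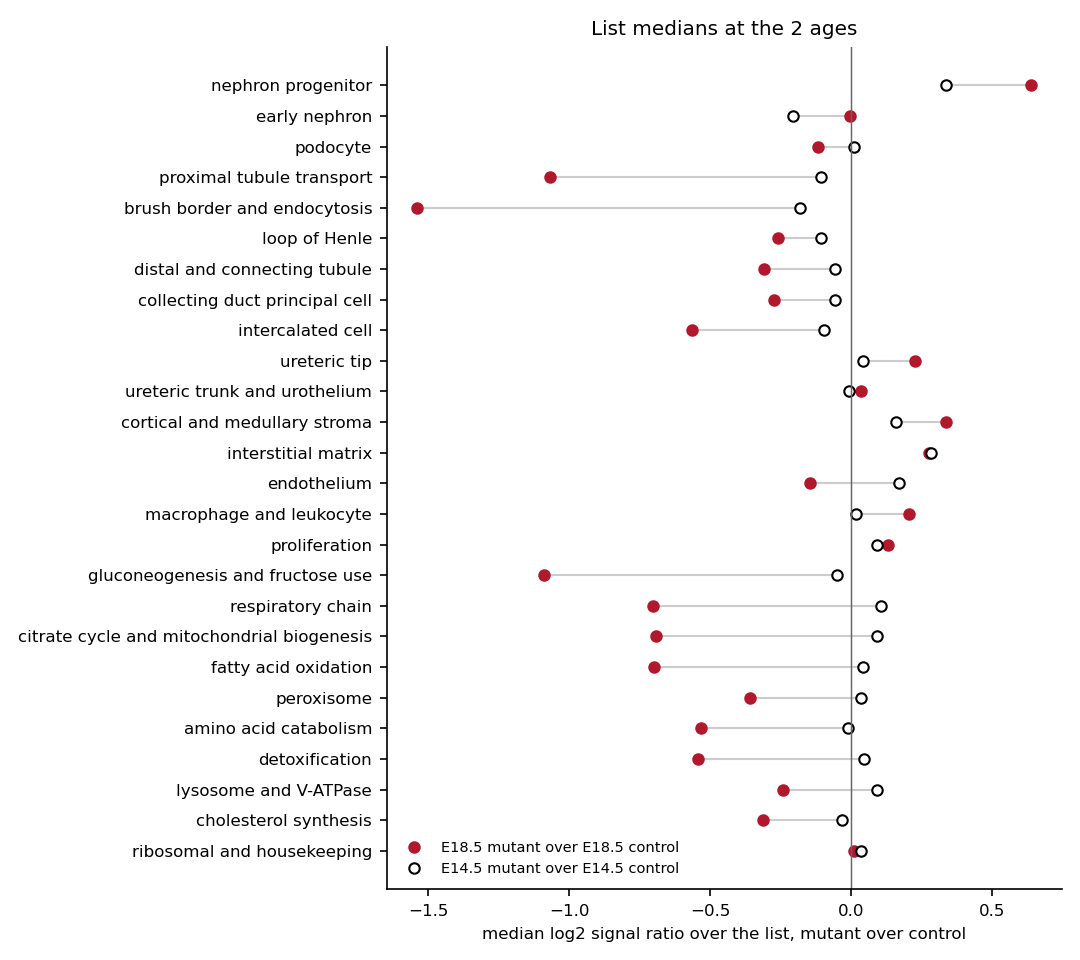
Median log2 ratio of mutant over control signal for 26 gene lists, at E18.5 (red, filled) and at E14.5 (open), with a grey line joining the ages. Segment and metabolism lists lie left of 0 at E18.5 and nearer 0 at E14.5. The early nephron list lies at -0.01 at E18.5 and -0.21 at E14.5, and the nephron progenitor list right of 0 at both, at 0.64 and 0.34.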

How the data were processed

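The 4 RNA pools were hybridised to Affymetrix Mouse Genome 430 2.0 arrays, each in 2 target preparations. The authors deposited signal intensities of 45101 probe sets, scaled in MAS 5.0, then normalized (invariant set) and modelled in dChip2004. Array medians are above those the methods state after normalization, and this gap is unexplained. After 64 control probe sets were left out, 34945 had 1 gene, 932 several and 9160 none (platform annotation, symbols updated to GRCm38.p6). The present calls of the methods were replaced by the 40th percentile. Signals under 1 were read as 1. List genes were read by their brightest probe set, called genes by the passing one with the largest ratio. Genes named are the 25 highest in the mutant, ranks 51 to 80 of the lower, genes the study names, threshold neighbours, and from each list the 4 brightest and the 2 highest and 2 lowest that passed; others were chosen after their values were seen. Members and lists were chosen with earlier results of these data known. The array number limits precision. The criteria were tried on simulated arrays with the noise of the E18.5 control duplicates. These lie closer together than the mutant duplicates (median fold 1.06 against 1.15), so the trial gives no rate of false calls for these data. Python 3.11.15, numpy 2.4.6, pandas 2.3.3 and matplotlib 3.10.9 were used.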

Additional observations from a re-analysis of the deposited data

Results flagged for a closer look

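Some results went one way in every pairing of E18.5 arrays and the opposite way in every pairing of E14.5 arrays. This held for 5 of the 30 named genes higher in the E18.5 mutant and for 36 of the 406 lower. Of the 30824 probe sets that reached the 40th percentile on any array, 5500 had a lower mutant signal in all 4 E14.5 pairings. A higher one was seen in 6534. Reversals were thus no more frequent among the called genes than such one-way results were over these probe sets. Each age has 1 pool per condition, so the difference between the ages was not tested. All values are log2 ratios of mutant over control, E18.5 before E14.5. Among genes higher in the E18.5 mutant, Sprr2f had 2.73 and -0.26, Tchh 1.61 and -0.75, Ncam1 1.22 and -0.31, Sox11 1.04 and -0.39, and Zeb2 1.01 and -0.19. For Ncam1, Sox11 and Zeb2 these values are those of the passing probe set, and not every probe set of these genes reversed. The brightest of Ncam1 was 1.63-fold higher at E18.5 and 1.18-fold (1.08 to 1.28) at E14.5, and 1 of the other 5 of Sox11 was 1.32-fold and 1.23-fold (1.09 to 1.41). The E14.5 signals of Sprr2f and Tchh lay under the 40th percentile on every array of either genotype, those of Tchh far under it. Among genes lower in the E18.5 mutant, Serpina6 had -4.32 and 0.16, Gpx3 -3.32 and 0.18, Ttr -2.83 and 0.22, Lgmn -1.73 and 0.13, Cldn10 -1.52 and 0.32, and Ldhb -1.47 and 0.22. Smaller reversals of this kind were those of Fdx1 at -1.41 and 0.16, Atp5g1 at -1.26 and 0.23, Cox7a1 at -1.25 and 0.07, Atp6v0b at -1.07 and 0.30, and Igfbp3 at -1.01 and 0.28.

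List medians differed in the same manner for 6 lists. The respiratory chain had -0.70 and 0.10, the citrate cycle and mitochondrial biogenesis -0.69 and 0.09, detoxification -0.54 and 0.05, hypoxia and glycolysis -0.43 and 0.05, lysosome and V-ATPase -0.24 and 0.09, and endothelium -0.15 and 0.17.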

How the results depend on the processing

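No paired analysis was possible because the array numbers name technical duplicates of 1 pool and the results come from no test. The 456 lower genes ranged from 357 with all 4 pairings at 2 to 589 with mutant array 2 left out (407 to 589 with 1 array left out), and 447 of the 456 were among the 589. The 37 higher genes were less stable. They numbered 20 with 50 units added to each signal, 19 with all 4 pairings at 2, and 49 to 152 with 1 array left out, which also drops the criterion on its duplicate. Without mutant array 1, mutant array 2 or control array 2 the counts were 74, 152 and 84, holding 32, 27 and 35 of the 37. Of the 152, 101 were named. All 4 pairings at 1.5, a setting added after the data had been seen, gave 113 higher and 745 lower. Quantile normalization gave 44 and 442, and median scaling 30 and 499. Of 46 lists, 22 had a median at least 0.2 from 0 and 20 to 24 did so under the alternatives. Medians changed sign for epithelial adhesion (0.035 under quantile normalization) and for neuron and glia (-0.0211 under quantile normalization, -0.024 under median scaling and -0.0060 to 0.118 with 1 array left out, the lowest without mutant array 1). The cause was not tested. No called gene among those named changed direction under the alternatives run. The criteria ask for a ratio of 2 or more that exceeds the fold between duplicates, so this outcome was largely fixed in advance.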

Other observations

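Among growth genes that are imprinted or fetal in expression, 13 of 18 lay above 0 in the E18.5 mutant, with a median log2 ratio of 0.27. Dlk1, a paternally expressed gene of immature cells, read 758 and 991 in the mutant, against 548 and 546 in the control, and Igf2, a fetal growth factor gene, 6684 and 7038 in the mutant, against 5342 and 5592 in the control. Interferon and antigen presentation genes had a median of 0.06 over 22 genes and acute phase genes -0.02 over 15. In the acute phase list Lcn2, which encodes a siderophore-binding protein of injured tubules and collecting ducts, read 304 and 284 in the mutant, against 178 and 171 in the control (1.68-fold higher). Targets of p53 and apoptosis genes had a median of 0.09 over 22 genes, with 0 called.

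Further genes at least 1.5-fold higher in every pairing, picked out after their values were seen, were Foxa1, a pioneer factor gene of endodermal and urothelial epithelium, at 1.86-fold (1.74 to 1.99), Krt19, a keratin gene of simple epithelia, at 1.82-fold (1.54 to 2.14), and Cdh2, the cadherin gene of mesenchyme and early tubules, at 1.71-fold (1.67 to 1.76). Their parts in any cell type were not tested.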
